A study of Mus musculus with 12 samples.

Results

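The endometrial expression of 9 genes that make, carry or degrade retinoic acid was compared between unmated females and females that had mated with intact or vasectomized males. The genes were the alcohol dehydrogenase Adh1, the retinol dehydrogenase Rdh10, the retinaldehyde reductase Dhrs3, the retinaldehyde dehydrogenases Aldh1a1, Aldh1a2 and Aldh1a3, the retinoic acid binding protein Crabp2, the retinol transporter Stra6 and the retinoic acid hydroxylase Cyp26a1. All 9 were measured, among 19938 genes that carried 1 symbol, and each had 1 row with that symbol alone. The set was chosen by the measured values of Adh1, which was lowest in intact-mated females and intermediate in vasectomized-mated females in these same arrays. The levels of Adh1 are therefore given as a description with no test. The other 8 genes were listed for their place in the pathway, with earlier results of these data known.

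Expression was read on 12 Affymetrix Mouse Gene 1.0 ST arrays of endometrial RNA from CBAF1 mice, the F1 offspring of CBA and C57Bl/6 parents. Of these, 4 arrays held RNA of virgin females that were never mated, 4 held RNA collected 8 h after an intact BALB/c male had mated (intact-mated females) and 4 held RNA collected at the same interval after a vasectomized BALB/c male had mated (vasectomized-mated females). The ejaculate of vasectomized males lacks sperm and the secretions of testis and epididymis. Each array held a pool of 4 females, which makes 16 per group, and errors describe pools rather than single animals. The endometrial layer was scraped from the opened uterus and can hold luminal and glandular epithelium, stroma, vessels and leukocytes. The labels call the controls estrus females, while the methods place their collection in the evening of pro-estrus. In comparisons with controls, mating, cycle stage and hour of collection cannot be told apart, whereas both mated groups were collected at the same interval after mating. The methods give ages as 1 range for all experimental females and not by group.

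Retinol, the circulating form of vitamin A, is taken into cells with the help of receptors such as STRA6 and is oxidised to retinaldehyde by enzymes that include RDH10 and ADH1, while DHRS3 carries out the reverse reduction. The ALDH1A enzymes then oxidise retinaldehyde to retinoic acid in a step that is not reversed. CRABP2 delivers retinoic acid to nuclear receptors of the RAR family, which act on target genes with partners of the RXR family. CYP26 enzymes remove retinoic acid. Retinoic acid signaling is known to take part in uterine preparation for implantation and in decidualization.

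All values are the log2 expression values that the authors deposited, so that a difference of 1 is a 2-fold change. Differences between groups were estimated with limma over all 12 arrays and all transcript clusters. A gene was called when its fold-change was at least 1.5 and its Benjamini-Hochberg adjusted p over all clusters was at most 0.05. Array medians ran from 7.25 to 7.32 and arrays within a group correlated at 0.983 or above. The number of arrays limits the precision. The control arrays did not form 1 tight set. The mean of 10 stromal markers was 10.36 and 10.30 in controls 1 and 2 but 9.47 and 9.42 in controls 3 and 4, and results that rest on these arrays are given below with and without them. The mean of 7 endothelial markers ran from 6.98 to 7.83 in controls, with controls 1 and 2 again the higher. The labelled tissue carried its epithelial markers throughout, with a list mean of 11.25 to 11.50 over 9 markers in controls, 11.36 to 11.43 in vasectomized-mated females and 11.42 to 11.54 in intact-mated females.

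Among the 8 genes other than Adh1, 3 were lower in intact-mated females than in controls, namely Aldh1a1, Aldh1a2 and Crabp2, and 5 were not called. In vasectomized-mated females 1, Crabp2, was lower and 7 were not called. Across all genes 2.11% were called lower and 2.78% higher in the first comparison, and 0.657% lower and 1.19% higher in the second. Between the mated groups limma called 0 of the 8. The background there was 0.271% lower and 0.627% higher. At an unadjusted p under 0.05, limma had 5, 5 and 1 of the 8 genes in these comparisons, namely Rdh10, Aldh1a1, Aldh1a2, Crabp2 and Cyp26a1 in both comparisons with controls and Cyp26a1 between the mated groups. Of all genes, 13.3% were lower and 14.5% higher at that level in intact-mated females, 9.52% and 10.5% in vasectomized-mated females, and 8.27% and 9.36% between the mated groups. Because the set was chosen within these contrasts, its counts are not read against the background. With controls 1 and 2 only, 4 of the 8 were called in each mated group, and with controls 3 and 4 only 2 were called in intact-mated and 1 in vasectomized-mated females. The median log2 fold-change of the 8 genes was -0.34 in intact-mated females, -0.51 in vasectomized-mated females and -0.06 between the mated groups, against 0.01, -0.01 and 0.02 over all genes. The medians rested in part on control 2, without which the first 2 were -0.24 and -0.29. In the plot of values by array, the separation of groups can be compared gene by gene.

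**Figure D1:**
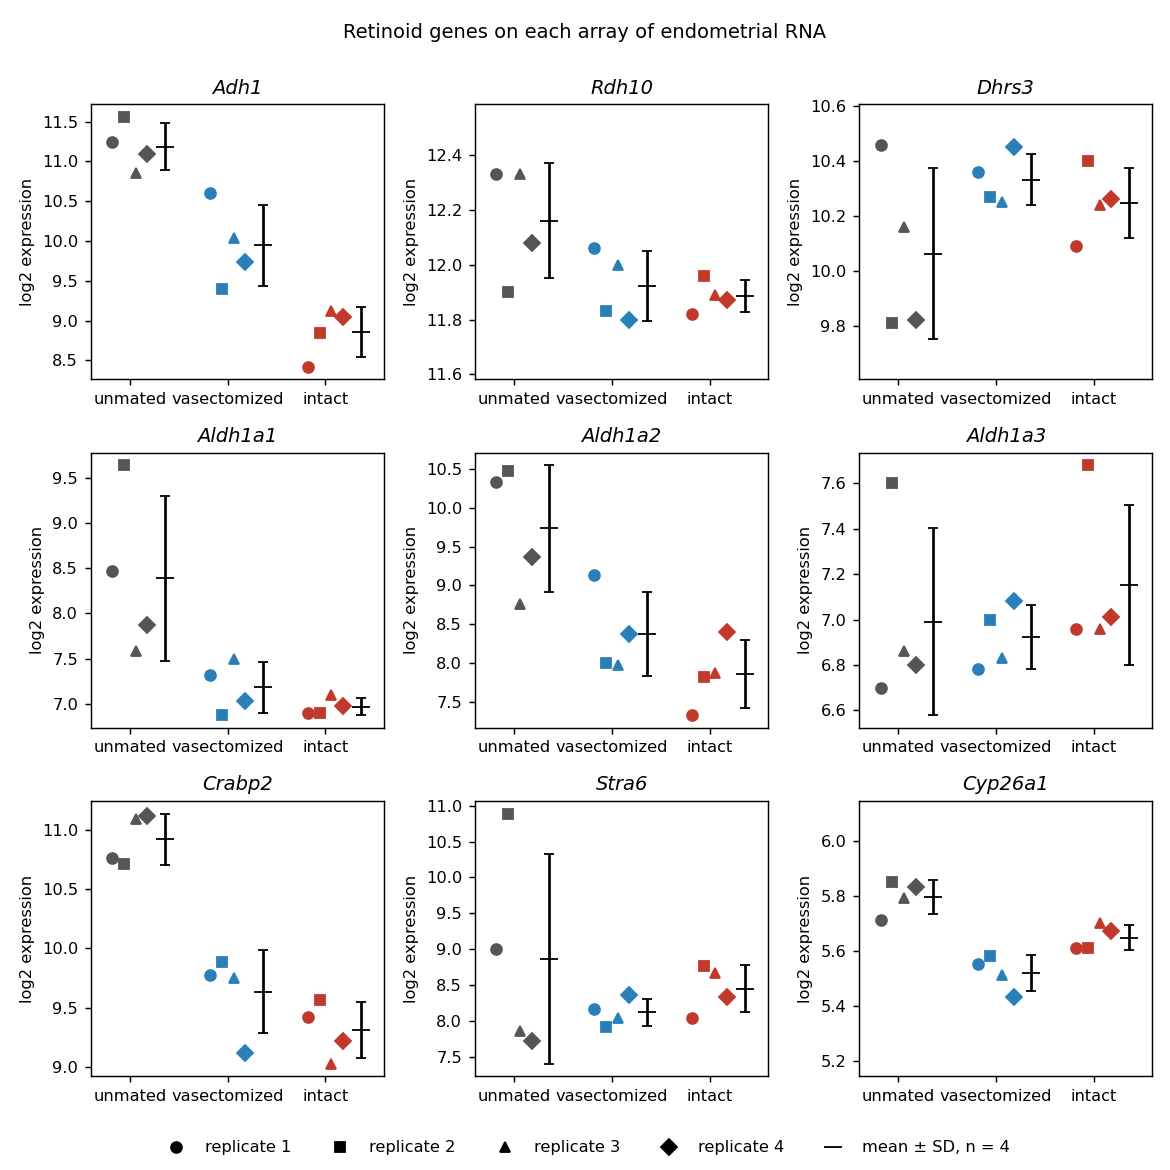
Log2 expression (vertical axes, scaled per gene) of the 9 retinoid genes on each of 12 arrays, with 1 symbol shape per replicate number, and the mean ± SD of each group (n = 4) as a black bar. Adh1 forms 3 separate bands, from 10.86 to 11.56 in unmated females down to 8.42 to 9.12 in intact-mated females, whereas Rdh10 and Dhrs3 overlap between groups.

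The start-site regions of 3 genes are shown because they differ in the element through which retinoic acid is known to act on its targets. Adh1, Aldh1a2 and Cyp26a1 all had lower means in both mated groups than in controls, and Cyp26a1 is a textbook target of retinoic acid. A link between the element and the direction of change was not tested. RefSeq windows of GRCm38.p6, from 250 bases before to 50 bases after an annotated start, were at hand for 6 of the 9 genes in 12 windows. Rdh10, Aldh1a3 and Crabp2 had no entry. Capitals mark a direct repeat of a nuclear receptor half-site with a spacer of 5 bases. The Adh1 window lies at chr3:138277335-138277634, the Aldh1a2 window at chr9:71215539-71215838 and the Cyp26a1 window at chr19:37697558-37697857, each on the + strand and written 5′ to 3′.
Adh1: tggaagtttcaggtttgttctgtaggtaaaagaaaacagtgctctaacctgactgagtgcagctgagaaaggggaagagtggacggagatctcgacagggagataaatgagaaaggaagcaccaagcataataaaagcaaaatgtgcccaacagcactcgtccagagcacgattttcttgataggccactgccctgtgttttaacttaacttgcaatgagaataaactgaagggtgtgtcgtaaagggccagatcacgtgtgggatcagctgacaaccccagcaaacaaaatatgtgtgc
Aldh1a2: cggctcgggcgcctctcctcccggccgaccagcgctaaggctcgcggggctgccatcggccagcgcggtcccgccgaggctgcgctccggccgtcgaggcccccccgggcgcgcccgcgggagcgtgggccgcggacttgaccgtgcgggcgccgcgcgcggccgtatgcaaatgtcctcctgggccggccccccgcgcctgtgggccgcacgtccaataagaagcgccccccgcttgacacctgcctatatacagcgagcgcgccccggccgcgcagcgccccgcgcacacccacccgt
Cyp26a1: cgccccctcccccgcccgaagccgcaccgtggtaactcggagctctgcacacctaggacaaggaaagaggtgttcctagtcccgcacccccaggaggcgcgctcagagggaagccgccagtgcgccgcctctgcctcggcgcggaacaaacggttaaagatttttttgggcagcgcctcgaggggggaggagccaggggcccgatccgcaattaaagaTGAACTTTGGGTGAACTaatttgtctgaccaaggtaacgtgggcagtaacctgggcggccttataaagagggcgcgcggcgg

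Windows were searched on both strands for the half-site AGGTCA, with AGTTCA as one variant, GGGTCA as another and GGTTCA as the last, alone or repeated in the same direction with 1, 2 or 5 bases between the copies. A repeat with a spacer of 5 was found in 1 of the 12 windows, that of Cyp26a1, where it reads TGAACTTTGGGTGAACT on the printed strand and begins 32 bases before the start. Such a repeat was present in 0.0974% of all 32851 windows. Spacers of 1 and 2 were found in 0 of the 12 windows and in 0.222% and 0.268% of all windows. A half-site alone, which every repeat also contains, was present in 3 of the 12 windows, 1 each of Aldh1a1, Stra6 and Cyp26a1, and in 43.7% of all windows. The palindrome of estrogen receptors, which is GGTCA and its complement TGACC separated by any 3 bases, was found in 0 of the 12 windows and 0.07% of all windows. A match is a match of letters only, and its absence from these windows says nothing about the factor.

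Adh1, an alcohol dehydrogenase with activity on ethanol and retinol, stood at 3 separate levels. It was 11.24, 11.56, 10.86 and 11.09 in controls, 10.60, 9.40, 10.04 and 9.74 in vasectomized-mated females and 8.42, 8.85, 9.12 and 9.04 in intact-mated females. No array of one group entered the range of another, and the nearest neighbours were control 3 at 10.86 and vasectomized array 1 at 10.60. The group means were 11.19 ± 0.29, 9.95 ± 0.51 and 8.86 ± 0.31 (SD, n = 4 each). The mean in vasectomized-mated females corresponded to 42.3% of the control mean and that in intact-mated females to 19.9% on the linear scale. The differences were -2.33 for intact-mated females against controls (SE 0.24, 5.02-fold), -1.24 for vasectomized-mated females against controls (SE 0.24, 2.36-fold) and -1.09 between the mated groups (SE 0.24, 2.12-fold). Of 19938 genes, 6, 37 and 4 had a lower log2 fold-change than Adh1 in these comparisons. With each array left out in turn, the difference ran from -2.44 to -2.18, from -1.46 to -1.06 and from -1.27 to -0.87 in the same order. With controls 3 and 4 only, the difference for vasectomized-mated females was -1.03.

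Of the other enzymes that interconvert retinol and retinaldehyde, neither was called in any comparison. Rdh10, the main retinol dehydrogenase of embryonic tissues, was 12.33, 11.90, 12.33 and 12.08 in controls, 11.80 to 12.06 in vasectomized-mated females and 11.82, 11.96, 11.89 and 11.87 in intact-mated females. Control 2 alone fell within the range of the mated arrays and the other 3 controls lay above it. The log2 fold-change of Rdh10 was -0.27 in intact-mated females (95% confidence interval -0.49 to -0.06, limma adjusted p = 0.108) and -0.24 in vasectomized-mated females (-0.45 to -0.02, limma adjusted p = 0.218). Intervals are those of the moderated fit and are not corrected for the number of genes.

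Dhrs3, which returns retinaldehyde to retinol and is itself induced by retinoic acid in many tissues, spread most among controls. Its values were 10.46, 9.81, 10.16 and 9.82 there, against 10.25 to 10.45 in vasectomized-mated females and 10.09 to 10.40 in intact-mated females. The log2 fold-changes were 0.19 (-0.10 to 0.47, limma adjusted p = 0.455) in intact-mated females and 0.27 (-0.01 to 0.55, limma adjusted p = 0.291) in vasectomized-mated females. All groups overlapped, and the 2 lowest of all 12 arrays were controls.

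Retinaldehyde dehydrogenases carry the step that commits retinoids to retinoic acid, and 2 of the 3 fell in intact-mated females. Aldh1a2, the form that supplies retinoic acid to much of the embryo, was 10.33, 10.47, 8.76 and 9.37 in controls. It was 9.13, 8.00, 7.97 and 8.38 in vasectomized-mated females and 7.33, 7.82, 7.87 and 8.40 in intact-mated females. Intact-mated arrays lay below all controls, whereas vasectomized array 1 lay above control 3. Aldh1a2 fell by 1.88 on the log2 scale in intact-mated females (SE 0.38, 3.68-fold, limma adjusted p = 0.00744). The log2 fold-change in vasectomized-mated females was -1.36 (SE 0.38, limma adjusted p = 0.0679), and the mated groups differed by -0.51 (95% confidence interval -1.33 to 0.31, limma adjusted p = 0.533). The size of these differences followed the controls used. With controls 3 and 4 only, the difference for intact-mated females was -1.21 (limma adjusted p = 0.0554), and with controls 1 and 2 only it was -2.55 (limma adjusted p = 0.00126). For vasectomized-mated females the threshold was passed without control 3 (-1.69, limma adjusted p = 0.0223), without vasectomized array 1 (-1.62, limma adjusted p = 0.0454) and with controls 1 and 2 only (-2.03, limma adjusted p = 0.0112), whereas with controls 3 and 4 only the value was -0.70 (limma adjusted p = 0.258).

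Aldh1a1, a cytosolic retinaldehyde dehydrogenase that is also abundant in liver and eye, varied more widely among controls than in mated females. Controls read 8.47, 9.64, 7.58 and 7.87, vasectomized-mated females 7.32, 6.88, 7.50 and 7.03, and intact-mated females 6.90, 6.90, 7.10 and 6.97. All mated arrays were below all controls, the closest being vasectomized array 3 at 7.50 and control 3 at 7.58. Aldh1a1 fell by 1.42 in intact-mated females (SE 0.34, 2.68-fold, limma adjusted p = 0.0187). In vasectomized-mated females the log2 fold-change was -1.21 (SE 0.34, limma adjusted p = 0.0709), and the mated groups differed by -0.22 (95% confidence interval -0.95 to 0.52, limma adjusted p = 0.802). Control 2 held much of the spread. Without it the log2 fold-changes were -1.01 (limma adjusted p = 0.00661) and -0.79 (limma adjusted p = 0.0418), and without control 3 the latter was -1.48 (limma adjusted p = 0.0281). With controls 3 and 4 only, the log2 fold-change in intact-mated females was -0.76 (limma adjusted p = 0.0133) and that in vasectomized-mated females was -0.54 (limma adjusted p = 0.0709). With controls 1 and 2 only, they were -2.08 (limma adjusted p = 0.0012) and -1.87 (limma adjusted p = 0.0071). Aldh1a1 and its neighbour Aldh1a7 are close paralogs whose probes can share signal, and Aldh1a7 had log2 fold-changes of -0.29 and -0.20 (limma adjusted p = 0.143 and 0.391).

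Aldh1a3, the third enzyme of this step, was not called in any comparison. It was 6.70 to 7.60 in controls, 6.78 to 7.08 in vasectomized-mated females and 6.96 to 7.68 in intact-mated females, so that all groups overlapped. Its log2 fold-change was 0.16 in intact-mated females (95% confidence interval -0.27 to 0.60) and -0.07 in vasectomized-mated females (-0.51 to 0.37). The highest values were those of control 2 and intact array 2, at 7.60 and 7.68. The mean of Aldh1a3 over all arrays was below 7.28, the median over all clusters, as was that of Cyp26a1, and differences of such dim clusters tend to be compressed.

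Crabp2, which hands retinoic acid to its nuclear receptors, fell after both matings. Values were 10.76, 10.71, 11.09 and 11.12 in controls, 9.78, 9.89, 9.75 and 9.12 in vasectomized-mated females and 9.42, 9.57, 9.03 and 9.22 in intact-mated females. The lowest control stood well above the highest mated array, at 10.71 against 9.89, while the mated groups overlapped. Crabp2 fell by 1.61 in intact-mated females (SE 0.17, 3.05-fold, limma adjusted p = 8.97e-05) and by 1.28 in vasectomized-mated females (SE 0.17, 2.43-fold, limma adjusted p = 0.0019). The mated groups differed by -0.33 (95% confidence interval -0.70 to 0.05, limma adjusted p = 0.358). Among the controls Crabp2 was higher in arrays 3 and 4, the reverse of Adh1, Aldh1a1 and Aldh1a2.

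Stra6, a membrane receptor through which retinol enters cells, varied over a wide range among controls and little elsewhere. Controls read 9.0, 10.89, 7.86 and 7.72, vasectomized-mated females 8.16, 7.92, 8.04 and 8.36, and intact-mated females 8.04, 8.76, 8.67 and 8.33. Controls 1 and 2 lay above all mated arrays and controls 3 and 4 below them. The log2 fold-changes of -0.42 (95% confidence interval -1.57 to 0.74, limma adjusted p = 0.723) and -0.74 (-1.90 to 0.41, limma adjusted p = 0.502) had no settled direction. Without control 2 they were 0.26 (limma adjusted p = 0.670) and -0.07 (limma adjusted p = 0.912). With controls 1 and 2 only, they were -1.49 (limma adjusted p = 0.0428) and -1.82 (limma adjusted p = 0.0386), and with controls 3 and 4 only they were 0.66 (limma adjusted p = 0.0517) and 0.33 (limma adjusted p = 0.312).

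Cyp26a1, the retinoic acid hydroxylase whose start-site region holds the repeat printed above, lay in a narrow band near the low end of the arrays. It was 5.71 to 5.85 in controls, 5.43 to 5.58 in vasectomized-mated females and 5.61 to 5.70 in intact-mated females. The 3 groups did not overlap, in an order that put vasectomized-mated females lowest. The log2 fold-change was -0.28 in vasectomized-mated females (SE 0.06, limma adjusted p = 0.0198), below the 1.5-fold threshold, and -0.15 in intact-mated females (SE 0.06, limma adjusted p = 0.147). Between the mated groups it was 0.13 (SE 0.06, limma adjusted p = 0.269). In all, 5 of the 9 genes lay below controls without overlap in intact-mated females, namely Adh1, Aldh1a1, Aldh1a2, Crabp2 and Cyp26a1. In vasectomized-mated females 4 did so, the same genes without Aldh1a2. Of all genes, 7.91% and 4.85% did so in these comparisons. Between the mated groups Adh1 alone was lower and Cyp26a1 alone was higher in intact-mated females without overlap, where 7.49% and 9.04% of all genes were. These counts include Adh1, whose values chose the set, and are not read against the shares of all genes.

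**Figure D2:**
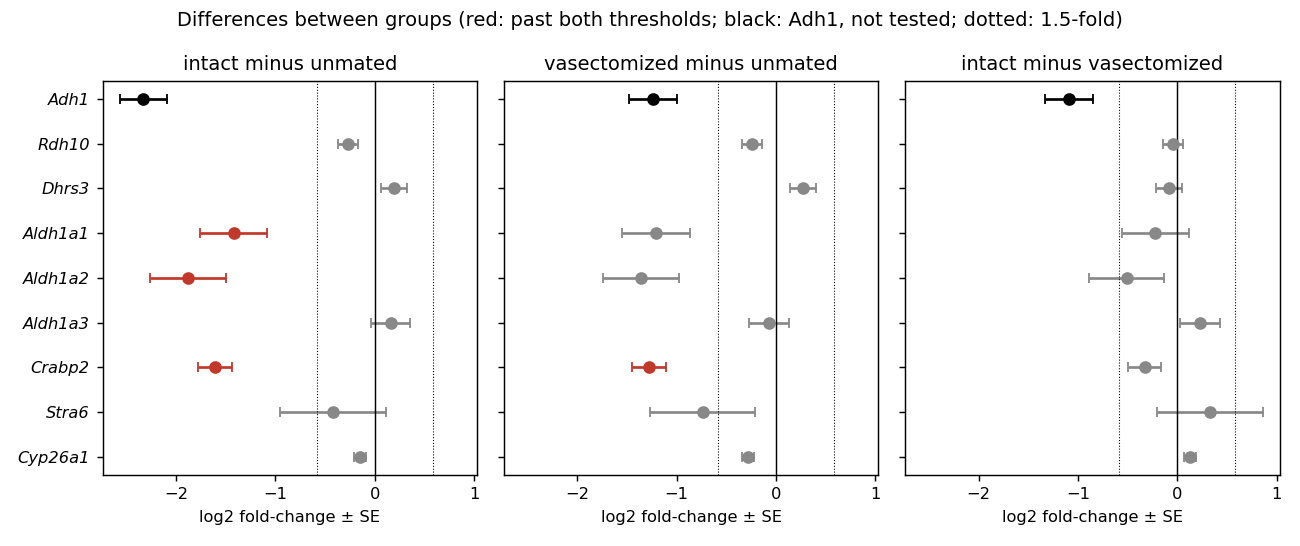
Log2 fold-change ± SE (horizontal axes, from the limma fit, n = 4 arrays per group) of each retinoid gene in the 3 comparisons, with dotted lines at 1.5-fold and genes past both thresholds in red. Adh1 at -2.33, Aldh1a2 at -1.88, Crabp2 at -1.61 and Aldh1a1 at -1.42 form the left-hand set in intact-mated females, and Adh1, in black, was not tested.

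Stromal markers moved with part of this pattern. The mean of the 10 stromal markers was 9.89 ± 0.51 (SD, n = 4) in controls, 9.58 ± 0.28 in vasectomized-mated females and 9.35 ± 0.35 in intact-mated females. Its range was 9.42 to 10.36, 9.28 to 9.97 and 8.88 to 9.71 in these groups. Of the 10 genes 2, Col1a1 (collagen type I) and Lum (the proteoglycan lumican), were called lower in intact-mated females, where 2.11% of all genes were. Over the deviations of the 12 arrays from their group means, the correlation with the stromal mean was 0.93 for Aldh1a2, 0.79 for Adh1, 0.68 for Aldh1a1 and Stra6, 0.08 for Rdh10 and -0.48 for Crabp2. These are descriptions over 12 arrays that share libraries between genes. In such bulk RNA, fewer cells of a type and less RNA per cell cannot be told apart.

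The stromal mean of the same array was also subtracted from each gene. The difference between Adh1 and the stromal mean ran from 0.87 to 1.67 in controls, from 0.12 to 0.63 in vasectomized-mated females and from -0.67 to -0.36 in intact-mated females. For Aldh1a2 it ran from -0.71 to 0.17 in controls, -1.57 to -0.84 in vasectomized-mated females and -1.62 to -1.31 in intact-mated females, with no overlap between controls and mated females. For Aldh1a1 it ran from -1.90 to -0.67 in controls and was at most -2.04 and -1.99 in vasectomized-mated and intact-mated females, which did not overlap with controls. For Crabp2 the groups overlapped, at 0.40 to 1.70 in controls, -0.42 to 0.61 in vasectomized-mated females and -0.49 to 0.54 in intact-mated females. With the stromal mean as a covariate in limma, chosen after seeing the data, the difference of Adh1 was -1.91 (SE 0.18) in intact-mated females and -1.0 (SE 0.16) in vasectomized-mated females. In the same fit Aldh1a2 fell by 1.09 (SE 0.18, limma adjusted p = 0.00303) and by 0.91 (SE 0.16, limma adjusted p = 0.00894), so that it was called in both mated groups. In that fit Crabp2 fell by 1.79 (limma adjusted p = 0.000157) and by 1.39 (limma adjusted p = 0.00161). Aldh1a1 was no longer called, at -0.91 in intact-mated females (SE 0.31, limma adjusted p = 0.0957). Neutrophil markers moved as well, with 3 of 10 (Cxcr2, S100a9 and Csf3r) called higher than in controls in intact-mated females, where 2.78% of all genes were. Their list mean was 6.24 to 6.37 in controls, 6.27 to 6.50 in vasectomized-mated females and 6.64 to 7.05 in intact-mated females. Their part in the fall of the retinoid genes was not tested.

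**Figure D3:**
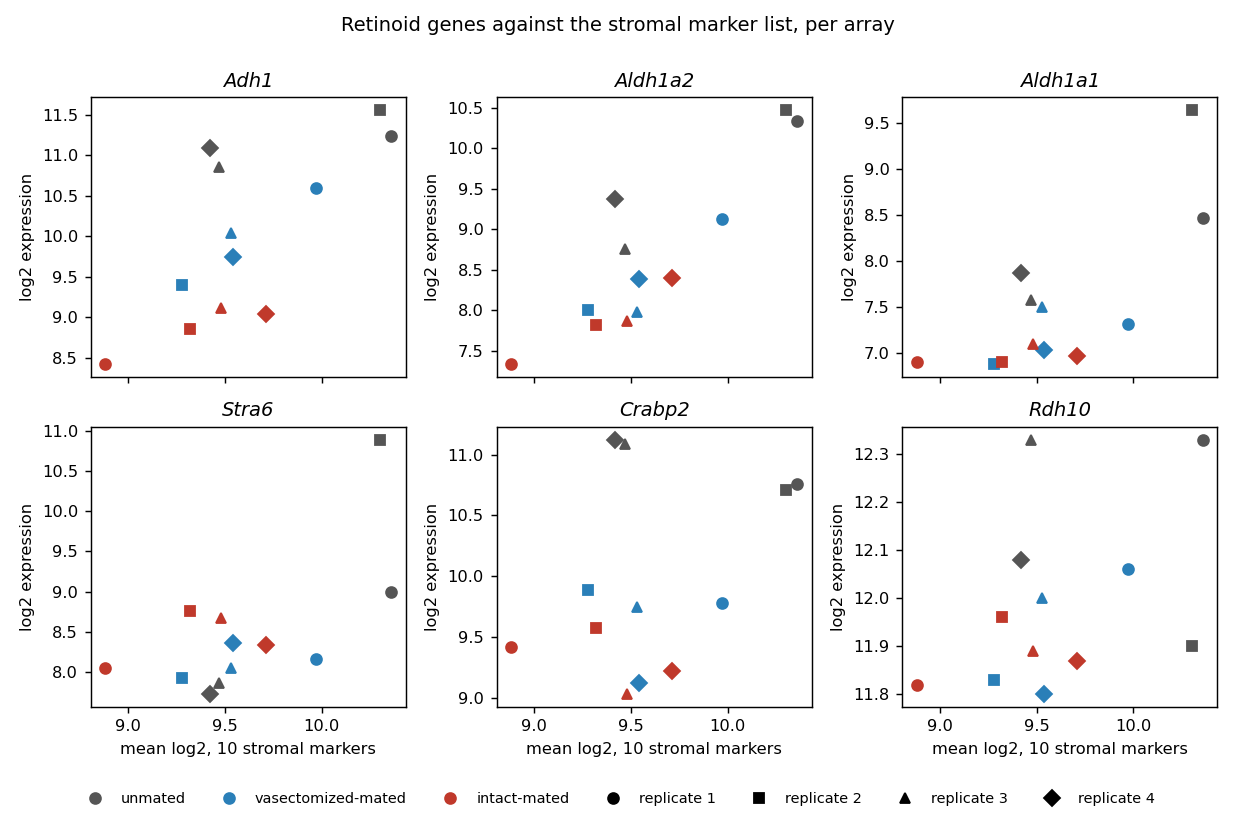
Log2 expression of 6 retinoid genes (vertical axes) against the mean log2 value of 10 stromal markers (horizontal axes) on each of 12 arrays, with colours for groups and shapes for replicate numbers. At stromal means near 9.5, where arrays of all groups are found, Adh1 stood at 10.86 and 11.09 in controls 3 and 4, at 10.04 and 9.74 in vasectomized arrays 3 and 4 and at 9.12 in intact array 3. The set was chosen by this order of Adh1 across groups, and its relation to stromal content was not tested.

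Genes with the most similar pattern to Adh1 were sought among 10798 single-symbol genes whose mean was at or above the median cluster. Over the 12 arrays the highest Pearson correlations were those of 4933427D14Rik (0.983), Ptms (0.971), Crispld2 (0.963), Fut8 (0.960) and Ctr9 (0.952). Of these, Crispld2, a secreted protein, had log2 fold-changes of -1.36 and -0.80 in intact-mated and vasectomized-mated females, and the fucosyltransferase gene Fut8 had -0.74 and -0.39. Crispld2 was called in both comparisons, Fut8 in intact-mated females, and the other 3 in neither. Over deviations from group means, which leave the group differences out, the highest were Rcn3 (0.928), Csrp2 (0.925), Tceal8 (0.925), Chst12 (0.910) and Col1a1 (0.910), a gene of the stromal list. Among the retinoid genes, Aldh1a2 came closest to Adh1 by both measures (0.906 and 0.771). The 12-array values include the fall of Adh1 across groups that chose the set and are descriptions only. The deviations of Aldh1a2 and Adh1 also correlated with the stromal mean, at 0.93 and 0.79. The correlations of Crabp2 with Adh1 were 0.830 over the 12 arrays and -0.243 over deviations. The strongest link between deviations within the set was that of Aldh1a1 and Stra6 (0.92), both of which were highest in control 2.

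Few genes elsewhere in retinoid handling were called. The list analysed here held 50 further genes for enzymes, carriers, receptors and retinoic acid responses. In intact-mated females 1 of the 50 was lower, 0 were higher and the median log2 fold-change was -0.05. In vasectomized-mated females 1 was lower, 0 were higher and the median was -0.09. These called counts lie near the background shares of 2.11% lower and 2.78% higher for the first and 0.657% and 1.19% for the second. At an unadjusted p under 0.05, limma had 5 genes higher and 13 lower in intact-mated females and 3 higher and 9 lower in vasectomized-mated females. Of all genes, 13.3% were lower at that level in the first comparison (14.5% higher) and 9.52% in the second (10.5% higher). In both comparisons the lower share of the 50 was thus above that of all genes, and the higher share was below it. This shift was not tested.

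The gene that was lower in both was Crabp1, the other cellular binding protein for retinoic acid. It was 8.78, 9.27, 8.31 and 9.0 in controls, 8.17, 7.42, 7.44 and 7.60 in vasectomized-mated females and 7.38, 7.38, 7.31 and 7.45 in intact-mated females. Controls lay above all mated arrays, by the least margin at control 3 and vasectomized array 1. Crabp1 fell by 1.46 (SE 0.19, 2.74-fold, limma adjusted p = 0.000488) and by 1.18 (SE 0.19, 2.27-fold, limma adjusted p = 0.00591), and the mated groups differed by -0.27 (limma adjusted p = 0.517). It met the thresholds with controls 1 and 2 only, with controls 3 and 4 only and with the stromal mean as a covariate. With the stromal mean of the same array subtracted, Crabp1 ran from -1.59 to -0.43 in controls. It then ran from -2.09 to -1.8 in vasectomized-mated females and from -2.26 to -1.5 in intact-mated females, the latter overlapping with controls.

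Between the mated groups 1 of the 50 was higher and 1 lower in intact-mated females. Of all genes, 0.627% were called higher and 0.271% lower in this comparison. At an unadjusted p under 0.05, limma had 4 of the 50 higher and 3 lower, against 9.36% and 8.27% of all genes. Rdh11, a retinaldehyde reductase, was 7.99 to 8.78 in controls, 7.68 to 7.85 in vasectomized-mated females and 8.33 to 8.73 in intact-mated females. The mated groups did not overlap and differed by 0.72 (SE 0.15, limma adjusted p = 0.0278). Dhrs4, a peroxisomal reductase of retinaldehyde and other carbonyls, was 10.48 to 10.61, 10.49 to 10.85 and 9.91 to 10.16 in the same order and was lower by 0.59 in intact-mated females (difference -0.59, SE 0.08, limma adjusted p = 0.00755). Neither met the thresholds without intact array 2, intact array 4 or vasectomized array 4. Dhrs4 lies at the 1.5-fold threshold and fell short of it under quantile normalization and median centring, while Rdh11 was not called without vasectomized array 1, 2 or 3 or without variance moderation.

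Among receptors, Rxra, the partner with which retinoic acid receptors bind DNA, had values of 9.29 to 9.51 in controls, 9.60 to 9.75 in vasectomized-mated females and 9.77 to 9.90 in intact-mated females. Its log2 fold-changes of 0.47 and 0.32 stayed under 1.5-fold (limma adjusted p = 0.000728 and 0.0198). Rara had log2 fold-changes of 0.04 and -0.11, Rarg -0.32 and -0.21, and Rarb, itself a target of retinoic acid, -0.14 and -0.27, with Rarg alone under an adjusted p of 0.05 (limma adjusted p = 0.0328 in intact-mated females). Rxrg had -0.19 and -0.36, and Aldh8a1, a relative of the retinaldehyde dehydrogenases, 0.05 and -0.02. Of the response genes, the 2 with the largest difference in any comparison were Rarres1, with -0.17 and -0.14, and Rai14, with -0.02 and -0.12. Lrat, which stores retinol as its ester, had log2 fold-changes of -0.78 and -0.58 (limma adjusted p = 0.105 and 0.291), and Rbp4, the plasma carrier of retinol and ligand of STRA6, 0.43 and 0.10. The carrier of dietary retinol Rbp2 had -0.28 and -0.46 (limma adjusted p = 0.0943 and 0.019, under 1.5-fold) and the beta-carotene oxygenase Bco2 -0.36 and -0.06. In the degrading family, Cyp26b1 and Cyp26c1 had log2 fold-changes of -0.16 and 0.08 in intact-mated females and -0.08 and -0.18 in vasectomized-mated females, and Cyp2s1 had -0.59 in both (limma adjusted p = 0.128 and 0.180).

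**Figure D4:**
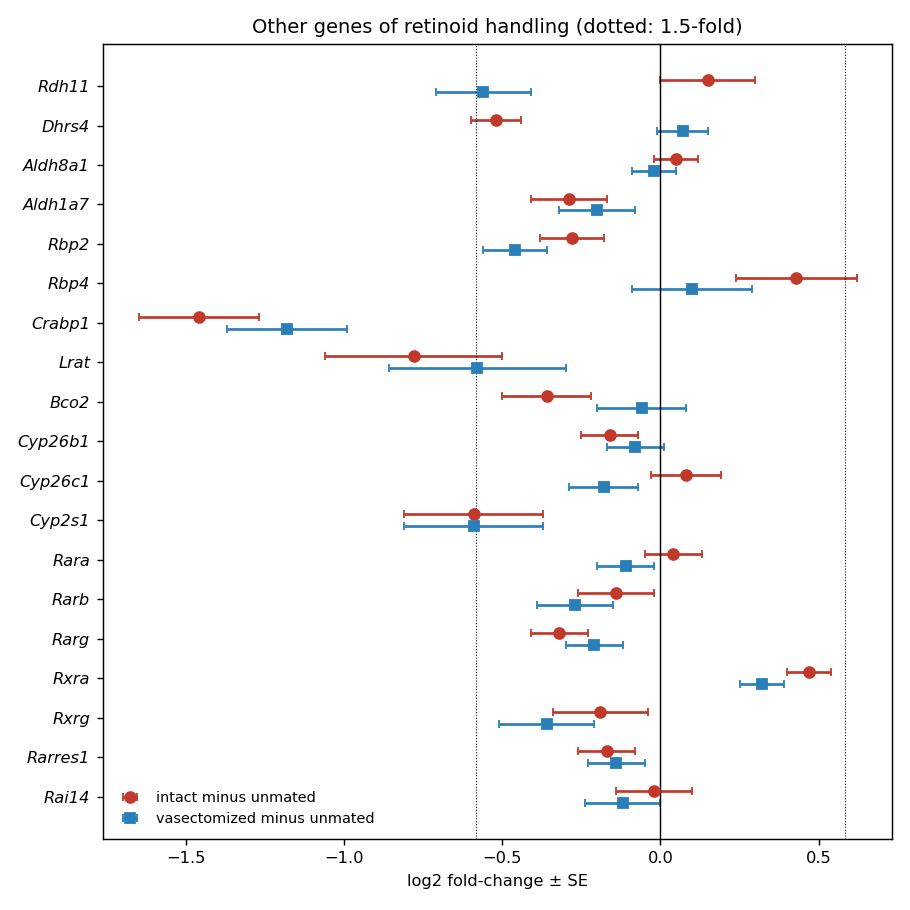
Log2 fold-change ± SE (horizontal axis, limma, n = 4 arrays per group) of further retinoid genes in intact-mated females (red circles) and vasectomized-mated females (blue squares) relative to unmated controls. Crabp1, at -1.46 and -1.18, is the gene past both thresholds, and Rxra lies to the right of 0 at 0.47 and 0.32.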

How the data were processed

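Endometrial RNA (300 ng per array) was labelled and hybridised to 12 arrays, 4 per group. Using Partek Genomics Suite, the authors normalized the arrays (background corrected by RMA, adjusted for GC content, probes summarized by their mean) and deposited the result as log2 values for 35556 transcript clusters. The Partek version and a genome build are not given in the labels or methods used here. Such summarization compresses differences of dim clusters. Of the clusters, 21789 carried 1 gene symbol in the array annotation, 1621 several and 12146 none. Of those with 1 symbol, 21698 matched the reference gene table and 0 symbols changed. A gene was represented by its row with the highest mean.

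Groups came from the sample labels. limma 3.58.1 (R 4.3.3) fitted 1 mean per group, with variances moderated across all clusters (residual degrees of freedom 9, plus 3.26 from the prior) and Benjamini-Hochberg correction. The methods use a per-gene model of the same groups, at the same thresholds. Tables and figures used Python 3.11.15. The code was tested on simulated data.

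The 9 genes, the other lists and the naming rule were chosen with earlier results of these data known. Named were all 9 genes, further retinoid genes that were called or had the 2 largest differences of their role, receptors, Crabp1, Cyp26b1 and Rbp4, called markers, and the 5 genes most like Adh1 by each measure. Marker lists also covered smooth muscle, mesothelium and fat, endothelium, macrophages and dendritic cells, lymphocytes, sperm and red cells. Of these markers 1, Cd14, was called (higher in both mated groups). Of all genes, 2.78% were called higher in intact-mated and 1.19% in vasectomized-mated females.

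Alternatives were quantile normalization, median centring, trend and robust moderation, array weights, no variance moderation, the replicate number as a block, only the 2 groups compared, dim clusters left out, the mean of all rows of a gene, other fold thresholds and each array left out in turn. Using 2 controls only and the stromal covariate were chosen after seeing the data.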

Additional observations from a re-analysis of the deposited data

Results flagged for a closer look

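In 4 cases 1 array stood apart from the other 3 of its group by Dixon's criterion, over 84 groups of 4 arrays for 28 genes. Chance flags about 1 in 20 groups. Aldh1a3 was 7.68 in intact array 2 and at most 7.01 in the other intact arrays. Rbp4 was 7.89 in control 1 against at most 6.99 in the other controls, and Rxra was 9.51 there against at most 9.32. Bco2 was 6.50 in vasectomized array 4 against at most 5.92 in the others of its group.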

How the results depend on the processing

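Adh1 group means moved by less than their SD in every alternative run for them, with ranges of 11.06 to 11.30 (controls), 9.73 to 10.13 (vasectomized) and 8.77 to 9.01 (intact) over left-out arrays. Counts of the 9 genes include Adh1, which chose the set, and are descriptions. The count in intact-mated females stayed at 4 over left-out arrays and at 3 to 5 elsewhere. In vasectomized-mated females it was 2, became 4 with array weights or without dim clusters (where Aldh1a3 and Cyp26a1 drop out), 5 with controls 1 and 2 only and 1 with controls 3 and 4 only, and ran from 2 to 4 over left-out arrays. Between mated groups 0 of the 8 genes other than Adh1 was called in the main fit or in any alternative. Aldh1a1 in intact-mated females missed the threshold without variance moderation (limma adjusted p = 0.0571) and when only those 2 groups were fitted (0.0548). Directions turned for genes that were not called. Over left-out arrays Aldh1a3 ran from -0.014 (without intact array 2) to 0.36 (intact) and from -0.16 to 0.13 (without control 2, vasectomized), and was 0.091 with controls 3 and 4 only (vasectomized). Stra6 ran from -0.80 to 0.26 (without control 2) and became 0.66 with controls 3 and 4 only and 0.39 with the stromal covariate (intact), and 0.33 with controls 3 and 4 only (vasectomized). Between mated groups Rdh10 ran from -0.078 to 0.0073 (without vasectomized array 1) over left-out arrays and Aldh1a1 became 0.0048 with the stromal covariate. The cause was not tested.

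Of the 50 further genes, 1 called in intact-mated females became 8 with no fold threshold, 3 with controls 1 and 2 only, 4 with controls 3 and 4 only (Rbp4, Crabp1, Lrat and Cyp2s1) and 5 with the stromal covariate (Dhrs4, Rbp4, Crabp1, Lrat and Rarres2), and 1 to 2 over left-out arrays. In vasectomized-mated females 1 became 5 with no fold threshold, 2 under quantile normalization, with controls 1 and 2 only and with the stromal covariate, 3 with controls 3 and 4 only, and 1 to 2 over left-out arrays. Between mated groups 2 became 1 under quantile normalization, median centring or no variance moderation, 0 at a 2-fold threshold, and 0 to 2 over left-out arrays.

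The labels repeat replicate numbers across groups, but same-numbered arrays did not deviate together (correlations of -0.255 to 0.205), so the numbers were not taken as pairs. With the replicate block, 954, 319 and 120 genes were called in the intact-control, vasectomized-control and mated-group comparisons, against 976, 368 and 179. Among the 8 retinoid genes other than Adh1 no call changed. The low signal of Cyp26a1 and Aldh1a3 limits what can be seen of them.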
